A study of Mus musculus with 6 samples.

Results

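The genes described here encode the non-collagen extracellular matrix of the mouse embryonic pancreas, the enzymes that process and remodel it, and a few proteins by which fibroblasts are recognised. They are a list of 53 gene symbols grouped by what they encode, drawn up with earlier results of these data known, and 51 of them were found in the authors' deposited table of 14681 genes. Mfap5 and Plod2 were not analysed here. The table compares the dorsal pancreas of 3 control and 3 knockout C57BL/6 embryos at embryonic day 18.5. The extraction protocol names the mutant as Dpy30∆P, a deletion of Dpy30, which is a core subunit of the Trithorax group complexes that methylate histone H3 at lysine 4. The name of the deposited table instead mentions Pdx1, a pancreatic transcription factor, and the labels do not explain this difference. The labels do not give the driver that deletes the gene, the alleles of either group or the sex of the embryos. They also do not say which cells carry the deletion. Bulk tissue was sequenced, so the values mix epithelium, mesenchyme, vessels and every other cell of the dissected organ.

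The extracellular matrix is the scaffold that cells secrete around themselves. In the developing pancreas, interstitial matrix of fibronectin, elastic microfibrils and proteoglycans is made mainly by mesenchymal cells. Basement membranes of laminins, nidogens and perlecan lie between this mesenchyme and the branching epithelium and around vessels. Lysyl oxidases and prolyl and lysyl hydroxylases modify collagen and elastin, and matrix metalloproteinases, held in check by the tissue inhibitors of metalloproteinases (TIMPs), cut matrix proteins.

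Each gene in the deposited table has a single mean normalized count over all libraries, so values per embryo cannot be given, and it is not known whether the groups overlapped in any gene. The table gives a log2 fold change that the authors shrank toward 0, with the p of their test before and after adjustment. From these, an unshrunken log2 fold change and its standard error (SE) were reconstructed, and it is this value that is meant below wherever a ± SE is given. A value was called well determined when its z lay within 0.1 of that of the deposited p and its SE was at most 1. The sources used here do not say which group was divided by which. Positive is read as higher in the knockout, the usual convention, and all directions would turn under the opposite one. Dpy30 itself does not settle this: the authors' deposited table gives it a mean normalized count of 29.4 and a shrunken log2 fold change of 0.01 (adjusted p = 1.00 by DESeq2). The 6 libraries are described as samples from separate embryos, and the p-values measure the spread between them.

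No matrix gene passed the authors' threshold of an adjusted p under 0.05, but most had values above 0. DESeq2 called 0 of 49 higher and 0 lower in the authors' deposited table, against 0.743% of the 12108 genes with an adjusted p (0.264% higher and 0.479% lower). At an unadjusted p under 0.05, 7 of the 50 with a p were higher (14%), against 2.7% of all 14386 genes. These were Vim, Fbln2, Pdgfra, Mmp14, Timp2, Lox and Mfap2. A further 2, Lama5 and P4ha1, were lower at that threshold, or 4%, against 2.7% of all genes. The fold change was positive for 41 of the 50, or 82%, against 54.8% of all genes with a p. Among genes with a mean count of at least 100 the contrast in signs was wider, with 39 of 46 matrix genes (84.8%) positive against 48.9% of all such genes. At these counts, 7 matrix genes (15.2%) were higher at an unadjusted p under 0.05 against 2.5% of genes, and 2 (4.35%) were lower against 3.73%. The median over the 46 well determined matrix genes was 0.33 on the log2 scale, against -0.04 over all 5710 well determined genes.

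The sizes were small beside what the design could call. The largest p that was called was 0.000347, so a call needed a log2 fold change of 3.58 SE. For the 46 well determined matrix genes this came to between 0.83 for Vim and 3.54 for Thy1, with a median of 1.53. The values themselves ran from -1.24 for P4ha1 to 1.53 for Mfap2. The 95% interval lay wholly between -1 and 1, which is a 2-fold change either way, for 12 of the 46, it reached 1 or more for 31 and -1 or less for 10.

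**Figure D1:**
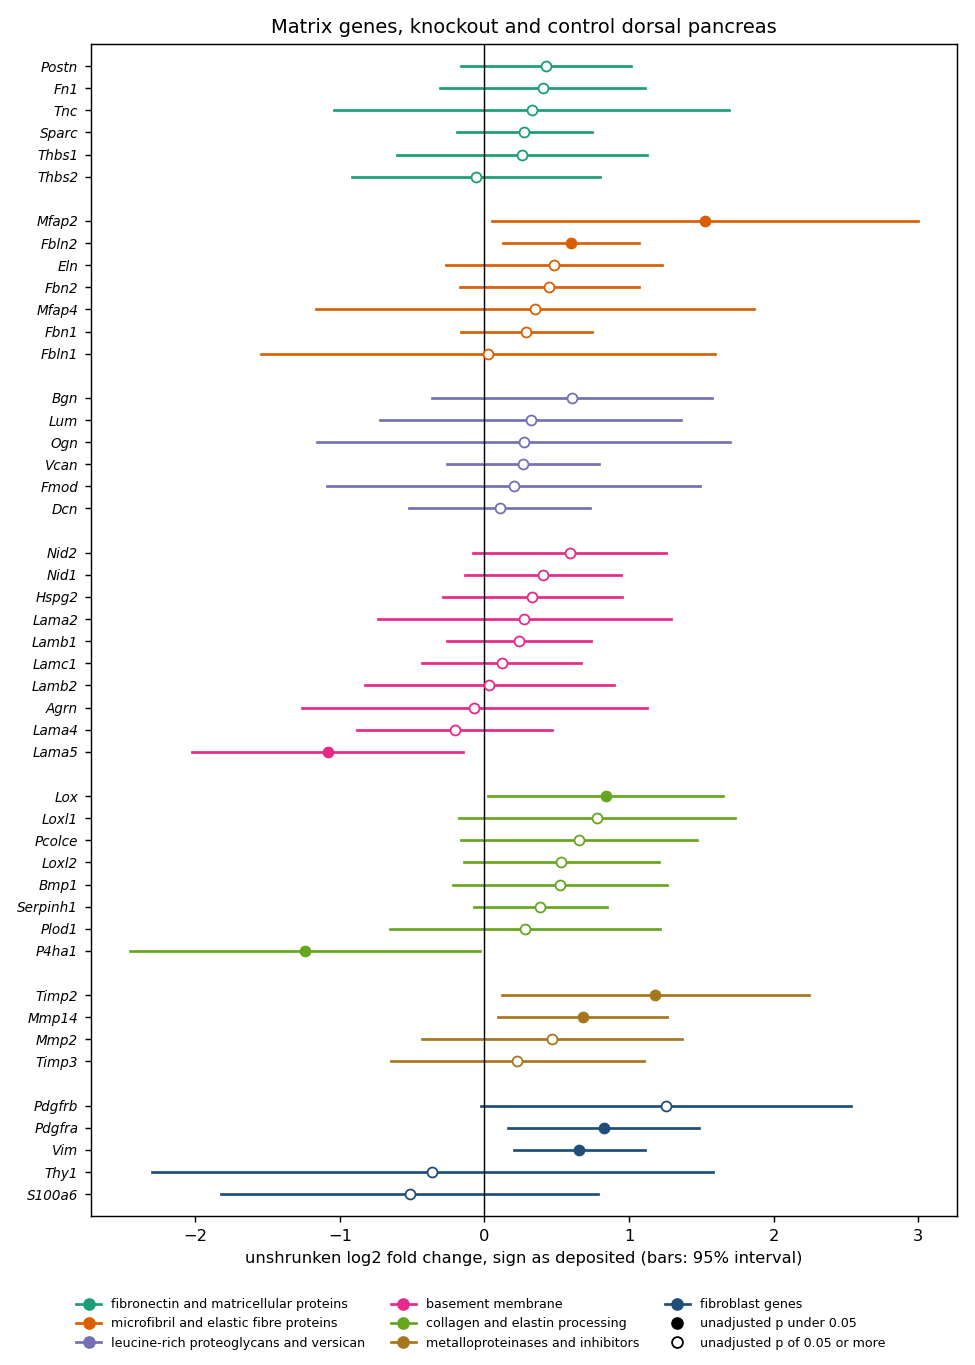
The 46 well determined matrix genes, grouped by role, with the unshrunken log2 fold change on the x axis (sign as deposited); points are the reconstructed values, bars their 95% intervals, and filled points have an unadjusted p under 0.05. Most points lie to the right of 0 with intervals that cross it, while Lama5 and P4ha1 lie to the left at -1.09 and -1.24.

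The fibroblast genes held the member with the smallest p. Vim, which encodes vimentin, the intermediate filament of mesenchymal cells, had a mean normalized count of 6950 and was 1.57-fold higher, with a log2 fold change of 0.65 ± 0.23 (SE; 95% interval 0.20 to 1.11). Its unadjusted p of 0.00469 ranked 201 among 14386 genes, and DESeq2 in the authors' deposited table gave an adjusted p of 0.281. Pdgfra, the platelet-derived growth factor receptor alpha of mesenchymal cells, was at 0.82 ± 0.34 (SE; unadjusted p = 0.0141, adjusted p = 0.498 by DESeq2 in the authors' deposited table). Pdgfrb, the related receptor of pericytes and fibroblasts, was at 1.26 ± 0.65 (SE), and its interval of -0.02 to 2.54 just included 0. The other two genes of the group had negative values with wide errors. Thy1, a cell surface glycoprotein of fibroblasts and neurons, was at -0.36 ± 0.99 (SE), and S100a6, a calcium-binding protein, at -0.52 ± 0.66 (SE). The 5 genes thus did not share a sign, although the 3 with a positive value include those of smallest error.

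Bulk tissue does not separate more cells of a type from more RNA per cell, and acinar enzyme transcripts differed between the 2 groups. Against 0.479% of all genes with an adjusted p, 9 of 10 acinar enzyme genes were called lower in the authors' deposited DESeq2 table. They include Clps, the cofactor of pancreatic lipase, at -3.19 ± 0.27 (SE), and the 11 acinar genes found make up 10.1% of all normalized counts. Of the 14 pan-epithelial genes with a p, 14 were negative, and Krt18, a keratin of simple epithelia, was called lower at -1.23 ± 0.28 (SE; adjusted p = 0.00315 by DESeq2 in the authors' deposited table). Relative to the weighted mean of the pan-epithelial genes (-0.62), the median of the matrix genes was 0.95. In that mean Krt18, with the smallest SE, weighs most, and the median of the pan-epithelial list was -0.49. The part of the lower epithelial genes in the matrix values was not tested.

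The elastic fibre genes of the set had positive values. Elastic fibres consist of elastin deposited on fibrillin microfibrils, with fibulins and microfibril-associated proteins bound to them. All 8 with a p had a positive fold change, against 54.8% of all genes, and the median of the 7 well determined values was 0.45. Fbln2, which encodes fibulin 2, a glycoprotein that binds fibrillin and basement membrane proteins, had a mean count of 3785. It was 1.51-fold higher, at 0.60 ± 0.24 (SE; 95% interval 0.13 to 1.07; unadjusted p = 0.0124, adjusted p = 0.468 by DESeq2 in the authors' deposited table). Mfap2, a small microfibril glycoprotein with a mean count of 135, had a value of 1.53 ± 0.75 (SE; unadjusted p = 0.0465 in the authors' deposited table). Its interval ran from 0.05 to 3.00, so the size is poorly known. With the assumed scale of the authors' shrinkage 1.1 or 0.9 times as large, the value was 0.92 or 3.02. Eln, which encodes elastin, was at 0.48 ± 0.38 (SE). The fibrillins, the core of microfibrils, were at 0.29 ± 0.23 (SE) for Fbn1 and 0.45 ± 0.32 (SE) for Fbn2. For Fbn1, 20.3% of the annotated exon bases also lie in exons of other genes on either strand. The libraries were stranded and the overlap was not split by strand, so it is not known whether reads are shared. Mfap4 (0.35 ± 0.77, SE) and Fbln1 (0.02 ± 0.80, SE) had errors too wide to read a direction. Fbln5, a fibulin needed for elastic fibre assembly, had a mean count of 73.2, a positive sign and an unadjusted p of 0.0510 in the authors' deposited table, but no size could be reconstructed within the tolerance. Emilin1, an elastin microfibril interface protein, has no p in the authors' deposited table.

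Remodelling genes of the set were positive in all 5 cases with a p, against 54.8% of all genes with a p. Mmp14, a membrane-anchored metalloproteinase that cuts collagen and activates the Mmp2 proenzyme, was 1.60-fold higher at 0.68 ± 0.30 (SE; 95% interval 0.09 to 1.27; unadjusted p = 0.0231, adjusted p = 0.605 by DESeq2 in the authors' deposited table). Mmp2, a gelatinase, was at 0.47 ± 0.46 (SE). Timp2, which inhibits metalloproteinases and also takes part with Mmp14 in activating Mmp2, was at 1.18 ± 0.54 (SE; 95% interval 0.12 to 2.24; unadjusted p = 0.0296, adjusted p = 0.663 by DESeq2 in the authors' deposited table). The transcripts of these 3 genes all had positive values, although that of Mmp2 did not differ from 0 beyond its error. Timp3, an inhibitor that binds to matrix, was at 0.23 ± 0.45 (SE). Timp1 had a mean count of only 6.03, which is too low for a size. Outside the set, 9 of 15 other proteases and inhibitors with a p were positive (60%). The median of their 10 well determined values was 0.09, and 0 had an unadjusted p under 0.05.

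Genes for collagen and elastin processing were positive in 7 of 9 cases, against 54.8% of all genes with a p. Their median was 0.53 over 8 well determined values. The lysyl oxidases cross-link collagen and elastin. Lox was at 0.84 ± 0.42 (SE; 95% interval 0.03 to 1.65; unadjusted p = 0.0434, adjusted p = 0.745 by DESeq2 in the authors' deposited table), Loxl1 at 0.78 ± 0.49 (SE) and Loxl2 at 0.53 ± 0.35 (SE). Only the interval of Lox excluded 0 among these. Loxl3, a lysyl oxidase outside the set, was at -0.04 ± 0.79 (SE). Pcolce, which enhances cleavage of procollagen, was at 0.66 ± 0.42 (SE), and Bmp1, the protease that makes this cut, at 0.52 ± 0.38 (SE). Serpinh1, the collagen chaperone of the endoplasmic reticulum, had a mean count of 3091 and a value of 0.39 ± 0.24 (SE). Plod1, a lysyl hydroxylase, was at 0.28 ± 0.48 (SE).

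The prolyl 4-hydroxylase genes P4ha1, P4hb and P4ha2 had negative values. This enzyme hydroxylates collagen prolines in the endoplasmic reticulum and is built of alpha subunits and the beta subunit P4hb, which is also an abundant protein disulfide isomerase of secretory cells. P4ha1, the alpha subunit 1, was at -1.24 ± 0.62 (SE; 95% interval -2.45 to -0.03; unadjusted p = 0.0447, adjusted p = 0.752 by DESeq2 in the authors' deposited table), which is 2.36-fold lower. P4hb, with a mean count of 10906, was at -0.61 ± 0.23 (SE; unadjusted p = 0.00711, adjusted p = 0.354 by DESeq2 in the authors' deposited table). P4ha2, the alpha subunit 2, was at -0.12 ± 1.07 (SE), with an interval from -2.21 to 1.98, too wide to read a direction. P4ha3, another alpha subunit, had no well determined value, and its sign is not given here. Relative to the weighted mean of the pan-epithelial genes, P4hb was at 0.0086 and P4ha1 at -0.62. The SEs of 0.23 and 0.62 do not include the error of that mean. The part of the epithelial genes in these values was not tested.

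Basement membrane genes were split. Of 11, 7 were positive (63.6%, against 54.8% of all genes with a p) and 4 negative. The median of 10 well determined values was 0.18. The nidogens, which link laminin to collagen IV, were at 0.59 ± 0.34 (SE) for Nid2 and 0.40 ± 0.28 (SE) for Nid1. Hspg2, which encodes perlecan, the main heparan sulfate proteoglycan of basement membranes, was at 0.33 ± 0.31 (SE). Agrn, which encodes the related proteoglycan agrin, was at -0.07 ± 0.61 (SE). None of these 4 differed from 0 beyond its 95% interval.

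Laminins are trimers of an alpha, a beta and a gamma chain, and the alpha chain varies with the tissue. Lama5, the alpha chain found under most mature epithelia, was 2.12-fold lower, at -1.09 ± 0.48 (SE; 95% interval -2.02 to -0.15; unadjusted p = 0.0222, adjusted p = 0.595 by DESeq2 in the authors' deposited table). Relative to the weighted mean of the pan-epithelial genes it was at -0.47, with an SE of 0.48 that leaves out the error of that mean. The part of the epithelial genes in this value was not tested. The alpha chains of mesenchyme, muscle and vessels lay nearer to 0, with Lama2 at 0.28 ± 0.52 (SE) and Lama4 at -0.20 ± 0.34 (SE). The chains that assemble with many alpha chains, Lamb1 and Lamc1, were at 0.24 ± 0.25 (SE) and 0.12 ± 0.28 (SE), and Lamb2 was at 0.03 ± 0.44 (SE). The interval of Lama5 overlaps that of each other laminin chain of the set, and the difference between the chains was not tested because the table gives no covariance between genes. Lama1, the alpha chain of the early embryo, had a mean count of 28.2 and a value of -0.24 ± 2.12 (SE), too uncertain to read. Outside the set, Lamb3, the beta chain of an epithelial laminin, was at -1.91 ± 0.90 (SE; unadjusted p = 0.0388, adjusted p = 0.729 by DESeq2 in the authors' deposited table).

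The sequences around the start sites of the 2 matrix genes with the smallest p in each direction are shown because these genes carry the opposite signs described above. Each is the RefSeq window of 300 bases (250 before to 50 after the listed start, GRCm38.p6), printed 5′ to 3′ on the strand of the gene. Only for Vim is the listed start the first base of the RefSeq gene span. The span of Fbln2 begins at 91212460, so its window lies wholly inside the gene. For Lama5 and P4ha1 the listed start also lies inside the span. Capitals mark matches on either strand to the TATA box (TATAAA), the CCAAT box (CCAAT), the GC box (GGGCGG) and the AP-1 motif (TGANTCA).
Vim, chr2:13574061-13574360, plus strand: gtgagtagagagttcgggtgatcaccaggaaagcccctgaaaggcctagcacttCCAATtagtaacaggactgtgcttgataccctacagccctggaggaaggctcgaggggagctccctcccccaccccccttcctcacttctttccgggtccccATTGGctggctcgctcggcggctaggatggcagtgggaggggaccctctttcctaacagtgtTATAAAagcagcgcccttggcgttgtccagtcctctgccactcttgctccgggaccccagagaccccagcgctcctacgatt
Fbln2, chr6:91212514-91212813, plus strand: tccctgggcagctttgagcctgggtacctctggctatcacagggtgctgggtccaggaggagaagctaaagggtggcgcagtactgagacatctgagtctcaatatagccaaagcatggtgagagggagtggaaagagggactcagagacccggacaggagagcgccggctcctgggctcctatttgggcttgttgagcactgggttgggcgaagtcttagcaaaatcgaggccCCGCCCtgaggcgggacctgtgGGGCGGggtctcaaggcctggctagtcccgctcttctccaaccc
Lama5, chr2:180225810-180226109, minus strand: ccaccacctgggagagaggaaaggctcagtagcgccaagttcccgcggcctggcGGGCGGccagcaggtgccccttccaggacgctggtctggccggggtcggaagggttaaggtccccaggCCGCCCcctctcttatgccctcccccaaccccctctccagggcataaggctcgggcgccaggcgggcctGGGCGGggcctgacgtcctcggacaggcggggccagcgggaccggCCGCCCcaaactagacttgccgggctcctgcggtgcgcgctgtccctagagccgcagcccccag
P4ha1, chr10:59323046-59323345, plus strand: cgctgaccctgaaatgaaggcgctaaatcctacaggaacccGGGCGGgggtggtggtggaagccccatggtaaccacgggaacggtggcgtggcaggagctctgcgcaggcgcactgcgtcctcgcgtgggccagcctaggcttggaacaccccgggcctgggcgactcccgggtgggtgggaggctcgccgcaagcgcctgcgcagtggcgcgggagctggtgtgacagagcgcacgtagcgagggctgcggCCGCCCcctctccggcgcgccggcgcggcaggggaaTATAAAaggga
The Vim window holds 1 TATA box and 2 CCAAT boxes, and no GC box was found in it. The Fbln2 window holds 2 GC boxes and none of the other motifs, and the Lama5 window 4 GC boxes and none of the others. The P4ha1 window holds 2 GC boxes and 1 match to the TATA box sequence. This match lies near the end of the window, after the listed start, whereas that of Vim lies before it. The AP-1 motif was found in none of the 4. Over all 27025 RefSeq windows of this length, 14.2% hold a TATA box, 37.9% a CCAAT box, 35.9% a GC box and 7.93% an AP-1 motif. The windows of the negative genes were richer in guanine and cytosine, at 72.7% for Lama5 and 70.3% for P4ha1, than those of Vim (59.3%) and Fbln2 (60.3%), against a median of 52.7% over all windows. They also held more CpG dinucleotides, 24 and 32 against 11 and 10. These 4 windows are a description of single genes. Windows were found for 33 of the 51 matrix genes, too few for a comparison of the whole set.

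Small leucine-rich proteoglycans bind collagen fibrils and set their spacing. All 6 genes of this group, versican included, had positive fold changes, against 54.8% of all genes with a p. Their median was 0.27, but none had an unadjusted p under 0.05. Dcn, which encodes decorin, was at 0.11 ± 0.32 (SE), the smallest value of the group, with an interval of -0.52 to 0.73. Bgn, which encodes the closely related biglycan, was at 0.61 ± 0.49 (SE). Vcan, which encodes versican, the large hyaluronan-binding proteoglycan of loose embryonic matrix, had a mean count of 2373 and a value of 0.27 ± 0.27 (SE). Lum (lumican), Ogn (osteoglycin) and Fmod (fibromodulin) were at 0.32 ± 0.53, 0.27 ± 0.73 and 0.20 ± 0.66 (SE).

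Fibronectin and the matricellular proteins, which modulate how cells bind matrix, had a narrow range of values. Sparc, a collagen-binding glycoprotein with a mean count of 6602, was at 0.28 ± 0.24 (SE). Fn1, which encodes fibronectin, was at 0.40 ± 0.36 (SE), and Postn, which encodes periostin, at 0.43 ± 0.30 (SE). The lowest were Thbs1 at 0.26 ± 0.44 (SE) and Thbs2 at -0.06 ± 0.44 (SE), the thrombospondins, and Tnc, which encodes tenascin C, was at 0.33 ± 0.70 (SE). The median of the 6 was 0.30, and none had an unadjusted p under 0.05.

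**Figure D2:**
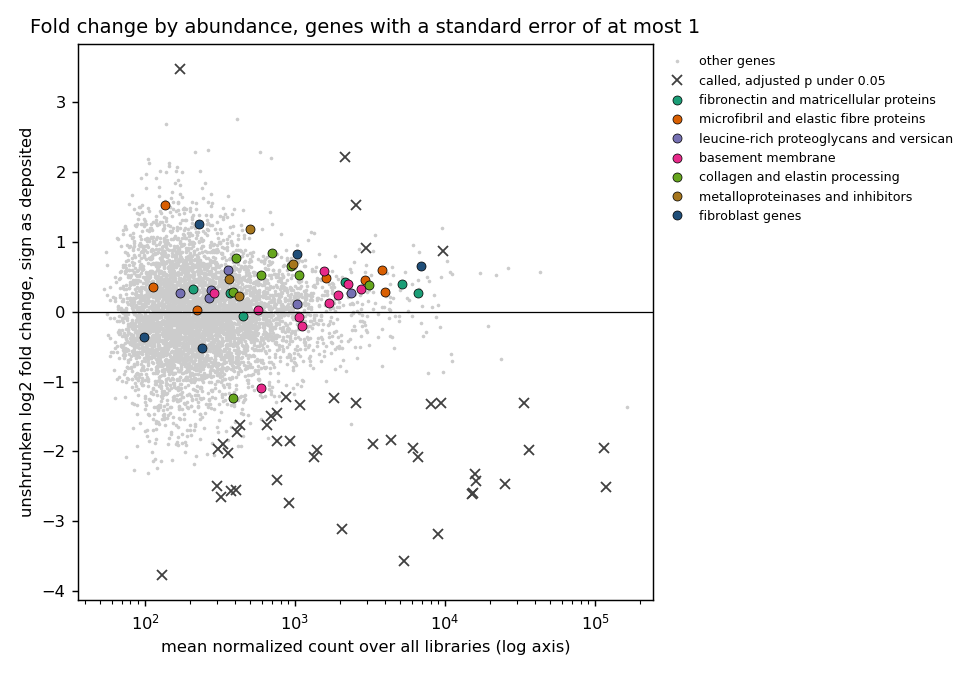
Unshrunken log2 fold change (y axis, sign as deposited) against the mean normalized count over all libraries (x axis, log axis) for the 5710 well determined genes. Coloured points are matrix genes by role, grey points other genes and crosses genes with an adjusted p under 0.05; the matrix genes with a mean count over 1000 sit mostly just above 0, among uncalled genes.

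The level of each gene is best compared per length of transcript. As the mean normalized count per 1000 bases of the longest protein-coding GENCODE transcript, averaged over both groups, Vim was highest at 3169, followed by Sparc at 2871, Serpinh1 at 1359 and Fbln2 at 791. Postn (669.6), Fn1 (619), Dcn (584) and Pcolce (577) came next. The median over the 51 matrix genes was 145, against 24.0 over all 13526 genes with such a length. At the low end were Lama1 at 2.96, Timp1 at 6.83 and Fbln5 at 12.6, and none of these 3 has a well determined fold change. With the table's single mean per gene no spread over samples can be given for these levels, so it is not known which neighbours in this order differ beyond their spread.

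**Figure D3:**
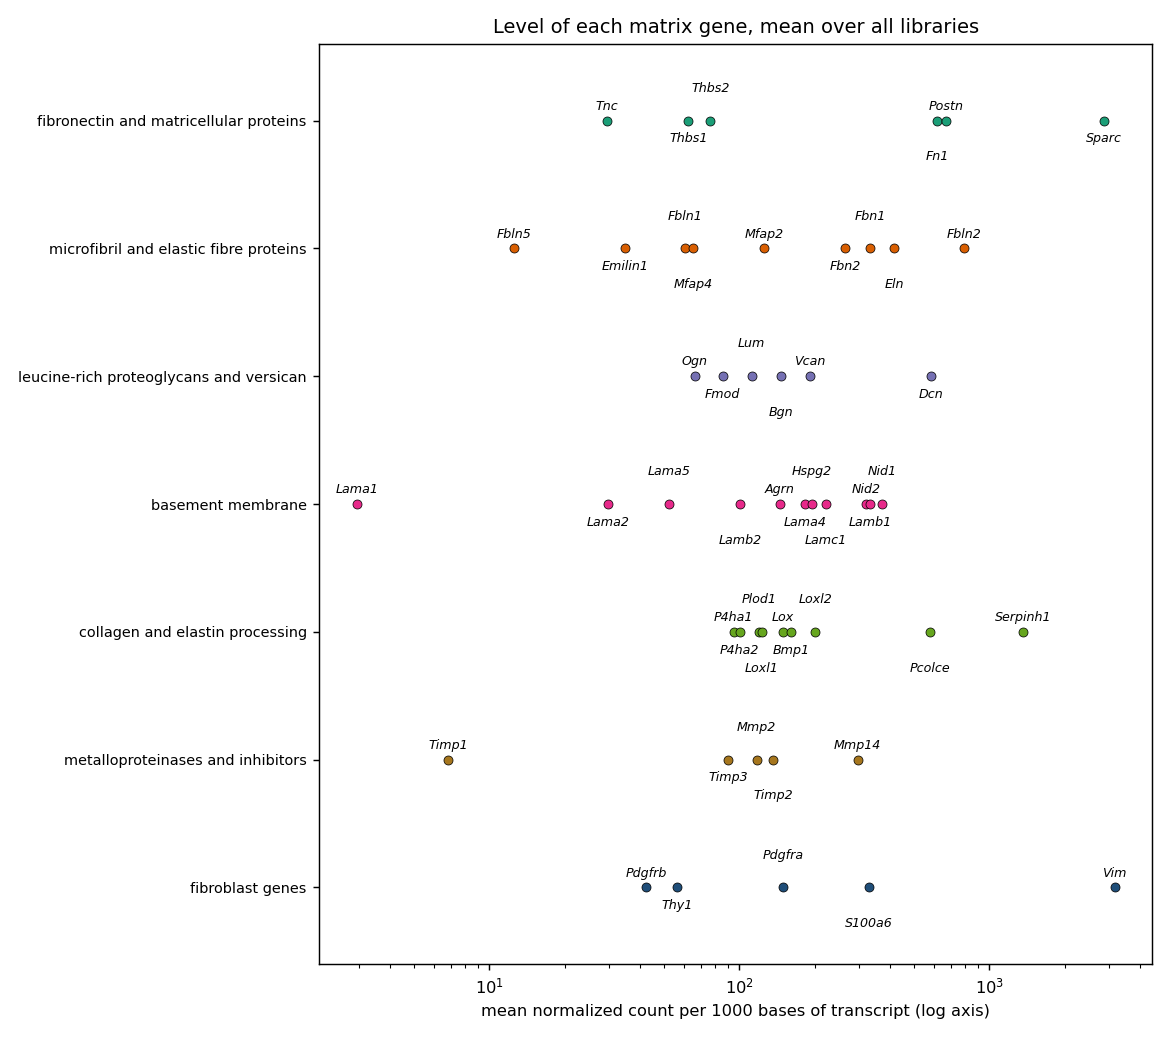
Mean normalized count per 1000 bases of transcript (x axis, log axis), averaged over all control and knockout libraries, for the 51 matrix genes found, by role. Vim at 3169 and Sparc at 2871 lie highest, and Lama1 at 2.96 lowest.

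Other genes of the matrix, from lists that hold none of the genes above, leaned less to one side. They also had lower counts, with a median mean count of 176 against 567 for the genes above. Their median SE was wider, at 0.59 against 0.43, and shares at matched counts were not computed. The lists hold 118 genes, of which 100 were found, and of the 97 with a p, 60 were positive (61.9%, against 54.8% of all genes). DESeq2 in the authors' deposited table called 0 of the 91 with an adjusted p, against 0.743% of all genes. Of the 97, 6 were higher and 2 lower at an unadjusted p under 0.05, against 2.7% of all genes in each direction. The median of the 62 well determined values was 0.15. Ltbp4, a latent TGF-beta binding protein of microfibrils, was at 0.96 ± 0.31 (SE; unadjusted p = 0.00233, adjusted p = 0.174 by DESeq2 in the authors' deposited table). The related Ltbp1 and Ltbp3 were at -1.35 ± 0.86 and -0.02 ± 0.41 (SE). The fibulins Efemp1 and Efemp2 were at -0.01 ± 0.74 and 1.06 ± 0.66 (SE). Colgalt1, which adds galactose to hydroxylysines of collagen, was at 1.66 ± 0.53 (SE; unadjusted p = 0.00181, adjusted p = 0.148). Ltbp4 and Colgalt1 had smaller p-values than any gene of the main set. Spon1, a secreted glycoprotein of the spondin family, was at 2.00 ± 0.85 (SE). With the assumed scale of the authors' shrinkage 1.1 or 0.9 times as large, the Spon1 value was 1.23 or 3.27. Gpc3, a cell surface heparan sulfate proteoglycan (unadjusted p = 0.00502), and Srgn, the proteoglycan of secretory granules of blood cells (0.00554), were also higher in the authors' deposited table, without a size that could be reconstructed. Among 16 matrix receptors with a p, 9 were positive, and 0 had an unadjusted p under 0.05. The smallest p there belonged to Itgb5, an integrin beta chain, at 0.71 ± 0.49 (SE). Itga9, an integrin alpha chain, was at -1.05 ± 0.86 (SE).

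The collagens and the cell type markers give the frame for these values. Of 13 collagens listed, 12 were positive, against 54.8% of all genes with a p. Of these 13, 4 had an unadjusted p under 0.05, and the median was 0.46. Col3a1 was at 0.63 ± 0.20 (SE) and Col14a1 at 0.67 ± 0.26 (SE), close in size to Vim and Fbln2. Smooth muscle and pericyte genes were positive in 11 of 12 cases, with a median of 0.81 over 7 well determined values, and Smtn, which encodes smoothelin, was at 1.05 ± 0.44 (SE). Endothelial genes were positive in 9 of 14 cases with a median of 0.09, and mesothelial genes in 3 of 5 with a median of 0.00. Leukocyte genes were positive in 8 of 9 cases and Schwann cell genes in 6 of 7, but their mean counts were low, with medians of 36.5 and 15.6. Hepatocyte genes were positive in all 9 cases, and Apoa1, a plasma apolipoprotein of liver and gut, was at 2.20 ± 0.80 (SE). DESeq2 in the authors' deposited table called 0 genes of the collagen and non-epithelial lists, against 0.743% of all genes. At an unadjusted p under 0.05, 4 of 13 collagens, 1 of 12 smooth muscle genes and 4 of 9 hepatocyte genes were higher. The share over all genes was 2.7%, and no other gene of these lists passed. Their part in the matrix values was not tested.

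**Figure D4:**
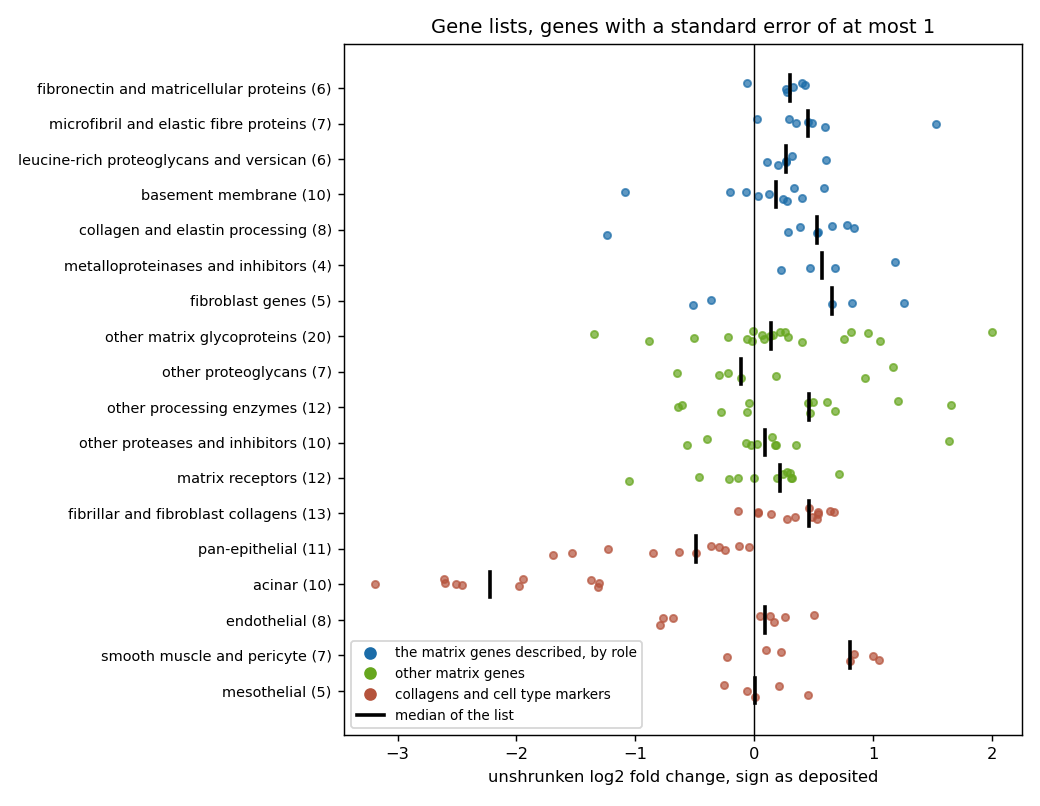
The x axis gives the unshrunken log2 fold change, sign as deposited, of every well determined gene (points) in the matrix roles, the other matrix lists and the collagen and cell type lists with at least 4 such genes (number in brackets); black bars are list medians. The matrix roles have medians between 0.18 and 0.65, and the acinar list lies at -2.22.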

How the data were processed

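Stranded libraries were made from ribodepleted RNA of the dorsal pancreas, per the labels' protocols. Trimmomatic, Salmon and DESeq2 on GRCm38 (mm10) are named in the submitters' processing notes; their versions, the annotation, any filter and the model were not given in these sources. The authors deposited 1 row per gene: the mean normalized count (a signal that the authors averaged over the libraries), the log2 fold change, shrunken, with its error (also log2), and a p-value with an adjusted p-value (both by the authors). No value per library and no depth per library is given, so no gene was tested again, and the planned count test was not run. The summed mean count of the table is 3663180.

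The unshrunken log2 fold change and SE were solved from the deposited mode and posterior SD under a Cauchy prior and a quadratic likelihood. The prior scale, 0.31025, was the one for which the z of most genes (13059 of 14386 with a p, 90.8%) came within 0.1 of that of the deposited p. The arithmetic was tested on simulated data. Intervals are 1.96 SE wide on each side. Benjamini-Hochberg adjustment of the deposited p-values returned the deposited adjusted p to within 0.000755. Genes that have a p and lack an adjusted p have a mean count of at most 8.15.

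All 51 matrix genes matched RefSeq by Entrez identifier and symbol. Lengths came from GENCODE M21, promoter sequences from RefSeq (GRCm38.p6). Every matrix gene may be named, and of each other list the 2 genes with the smallest p. Loxl3, Ltbp1, Ltbp3, Efemp1, Efemp2 and P4ha3 are named outside this rule. The genes and lists were chosen with earlier results of these data known. Alternatives tried were call thresholds, low-count filters, the prior scale, the tolerance, the SE limit and centring. Analyses used Python 3.11.15, numpy 2.4.6, pandas 2.3.3 and scipy 1.17.1.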

Additional observations from a re-analysis of the deposited data

How the results depend on the processing

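The count of 0 matrix genes called in either direction by the authors' DESeq2 test held at an adjusted p under 0.1, with adjustment over every gene with a p, and with only genes whose mean count was 100 or more. At an unadjusted p under 0.01, 1 matrix gene (Vim) was higher and 0 were lower, in place of 7 and 2. The median log2 fold change of 0.33 ranged from 0.11 for the deposited shrunken values to 0.58 with a prior scale 0.9 times as large, for which only 36 genes gave a value. It was 0.26 with a scale 1.1 times as large, 0.33 with a tolerance of 0.05, 0.40 with an SE of at most 0.5 and 0.37 relative to the median of all well determined genes. Single values depended more on this scale: 17 of the 46 well determined genes moved by over 1.5 times with a scale 1.1 times as large, and 11 of 36 with one 0.9 times as large, among them Mfap2 (from 1.53 to 0.92 and 3.02). With the smaller scale Plod1 was at 4.34, Timp3 at 1.47, Thbs1 at 1.20 and Thbs2 at -0.76, and the median of the metalloproteinases and inhibitors went from 0.57 to 1.06; at these scales 2768 and 351 genes matched their deposited p, against 13059 at the scale used. Relative to the pan-epithelial genes the median over the matrix genes was 0.95, because this adds 0.62 to every gene. The same constant turned some negative values positive. They became 0.56 for Thbs2, 0.55 for Agrn, 0.38 for Lama1, 0.41 for Lama4, 0.50 for P4ha2, 0.26 for Thy1, 0.10 for S100a6, 0.0086 for P4hb and 0.36 for Wt1. The number of positive matrix genes was 39 of 46 with a mean count of at least 100, 39 of 48 relative to the median and 46 of 48 relative to the pan-epithelial genes. No paired analysis was possible because the table holds no values per library, and for the same reason no replicate could be left out and no other normalization or tool could be run.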

Other observations

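Among the 90 genes called in the authors' deposited DESeq2 table, 2 with a tie to matrix lie outside every list above; both were picked after their values were seen. Chst2, a sulfotransferase that acts on N-acetylglucosamine of glycoproteins and proteoglycans, had a mean count of 2558 and a log2 fold change of -1.30 ± 0.29 (SE; adjusted p = 0.00293). Tnr, which encodes tenascin R, a matrix glycoprotein known from the nervous system, was called lower (adjusted p = 0.00109) at a mean count of 41.8, and no size could be reconstructed for it.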
